A study of Saccharomyces cerevisiae with 312 samples.

Results

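The strains described here carry mutations in genes of the general amino acid control of budding yeast, and were chosen by gene symbol: GCN1, GCN2, GCN3, GCN4 and GCN20. Of these 5 genes, 4 had values on at least 1 array and 3 (GCN3, GCN4 and GCN20) passed the filter on presence, out of 4125 strains that passed it in all. The 2 array features of GCN1 held values on 0 arrays, so nothing is reported for it. The strain labelled GCN2 was read without the filter, because its 2 main features had values on 72.4% and 74.4% of arrays, below the 80% asked of the others.

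The general amino acid control is the response of yeast to a shortage of amino acids. Uncharged tRNA activates the kinase Gcn2, with the help of Gcn1 and its ATP-binding partner Gcn20, which contact the ribosome. Gcn2 phosphorylates the initiation factor eIF2, the phosphorylated form inhibits the exchange factor eIF2B through its regulatory subunit Gcn3, and lower general translation lets ribosomes reach the start codon of GCN4. Gcn4 is the transcription factor that then activates genes of amino acid synthesis.

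The study crossed query mutations into a pool of barcoded mutant yeast strains, grew the double mutants together for 18 generations under selection for both markers, and compared barcode levels with a reference population on dual-colour arrays. The 154 queries comprised 139 deletions, 11 DAMP alleles (which destabilise an mRNA) and 4 TETO2 alleles, and were measured in 304 screens. Every query named below was a deletion. The reference population was a mixture of deletions on 252 arrays, the single deletion YEL068C on 59 and the single deletion YPR014C on 1. All populations, reference included, carry the pool's own mutations, and the labels do not say which kind of allele a pool strain carries. Values are log2 ratios of query over reference after median centring, so a negative value means fewer cells of that strain in the query population. Slower growth of a double mutant and poorer recovery of it after the cross cannot be told apart in such a ratio. Nothing in the labels says that repeat screens came from separate cultures. The p-values therefore reflect only how far screens of the same query differ, which may be technical. This spread was pooled over all queries for each strain, so a p-value does not rest on the SD printed beside it.

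A strain was called lower or higher in a query when limma's adjusted p was under 0.05 over all 547925 strain and query pairs and the log2 size was at least 1. This rule called 3.54% of all pairs, 2.33% lower and 1.21% higher. Without the presence filter, as used for the strain labelled GCN2, the shares were 3.79%, 2.35% and 1.44%. Values are means ± SD over screens, with n = 2 screens unless stated.

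The labels of the strains were checked by linkage. A pool mutation near the query locus rarely ends up in the same haploid as the query mutation, so a correctly labelled strain should be depleted in queries at neighbouring genes. Over all strains, the median was -4.80 at 1 to 5 genes from the query, -3.50 at 6 to 10 genes and -2.13 at 11 to 25 genes. The sign of these medians is partly set in advance, because 17 arrays with a positive median within 25 genes were multiplied by -1. None of the member screens given in this paragraph was turned in this way. The GCN20 strain stood at -8.20 and -7.40 in the query for its neighbour UBP6, 1 gene away. The GCN3 strain stood at -3.24 and -3.30 in IRS4, 7 genes away, and at -2.03 and -1.88 in NAP1, 22 genes away. Both strains thus sat where their labels place them. The GCN4 strain stood at -6.99 and -0.91 in GIM4, 6 genes away, and at -4.59 in the single screen of YER010C, 20 genes away. In its own query it stood at -2.33 and 0.84, so that it was depleted in the former screen and not in the latter. Of its 2 features past the filter, 1 was read in a single screen, at -3.11, and the other in both, with a mean of -0.36. The value of 0.84 therefore rests on 1 feature. Its 2 features below the filter read -3.48 and -3.36, in 1 screen each. Of the 112 query genes whose strain passed the filter and was measured in its own query, 107 had a mean below 0. The turning of arrays adds to this count as well.

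The strain labelled GCN2 went against its label in its own query. In other queries within 100 genes, both more than 25 genes away, it stood at -0.11 (SEM1) and at -0.60 in a single screen of PCF11. Over all strains the median was -0.99 at 26 to 50 genes, -0.42 at 51 to 75 and -0.20 at 76 to 100. Little depletion is thus usual at the longer of these distances. In the GCN2 query, where the strain labelled GCN2 should be lost, it stood at 3.56 and 1.66. Without the presence filter, the strains of 130 query genes measured in their own query had a median of -2.59 after the turning of arrays. Of these, 105 lay below 0 and 25 above, and 5 stood higher than the strain labelled GCN2. With the filter, 5 of 112 lay above 0. The mean of 2.61 drew on 2 features with values on 4 and 5 arrays, which read 3.96 and 3.92, while the 2 main features read 0.84 over 2 screens and 0.07 in 1 screen. None of these 4 readings showed a depletion. Its values are therefore given for the strain labelled GCN2, and no direction is drawn from them for the gene.

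The features of a strain agreed closely across screens, as a description of the measurement. The 2 features of GCN20 correlated at r = 0.922 over 295 screens, with a median absolute difference of 0.27, and those of GCN3 at 0.841 over 294 screens, with a difference of 0.22. The 2 features kept for GCN4 correlated at 0.950 over 242 screens. GCN4 had 2 further features, present on 53.2% and 40.7% of arrays, which correlated at 0.960 with each other but at 0.576 to 0.753 with the kept ones. The annotation does not say whether these are barcodes of a separate strain, and they were left out of the GCN4 values. In the TAT1 query they read 2.20 and 1.64, on the same side of 0 as the kept features.

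**Figure D1:**
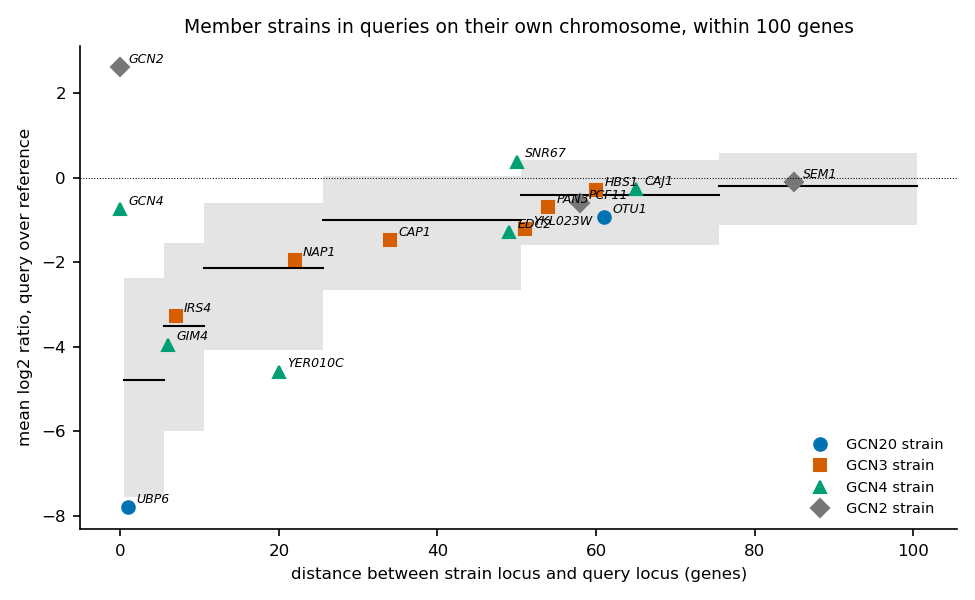
Mean log2 ratio (vertical axis) of the member strains in queries within 100 genes of their own locus, against the distance in genes (horizontal axis). Black lines are medians and grey bands the 5th to 95th percentiles of all strains at that distance. The GCN20 strain in UBP6 lies at -7.80 and the strain labelled GCN2 at 2.61 in its own query.

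Pairs within 100 genes were left out of all tests. The GCN20 strain was tested in 138 queries and was lower in 5 and higher in 6, which is 3.62% and 4.35% of its queries. The GCN3 strain was lower in 4 and higher in 1 of 135 queries. The GCN4 strain was lower in 2 and higher in 2 of 115 queries, and the strain labelled GCN2 was lower in 1 and higher in 1 of 92. Within 0.5 of 0 lay 79 of the 138 query means of the GCN20 strain, 91 of the 135 of GCN3, 62 of the 115 of GCN4 and 42 of the 92 of the strain labelled GCN2. In either direction, 7.97% of queries were called for the GCN20 strain, 3.70% for GCN3 and 3.48% for GCN4, beside 3.54% of all pairs. For the strain labelled GCN2 the share was 2.17%, beside 3.79% without the filter. Those of GCN3 and GCN4 thus lay near the share of all pairs. The share called for the GCN20 strain exceeded that of 83.8% of all strains. The corresponding figures were 68.8% for GCN3, 67.4% for GCN4 and 54.1% for the strain labelled GCN2. Of the 4125 strains, 1308 were never called. TAT2 was the query in which GCN3, GCN4 and GCN20 were all called in the same direction. MAK3 and TRM1 each called GCN3 and GCN20 in the same direction, as well as the strain labelled GCN2.

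**Figure D2:**
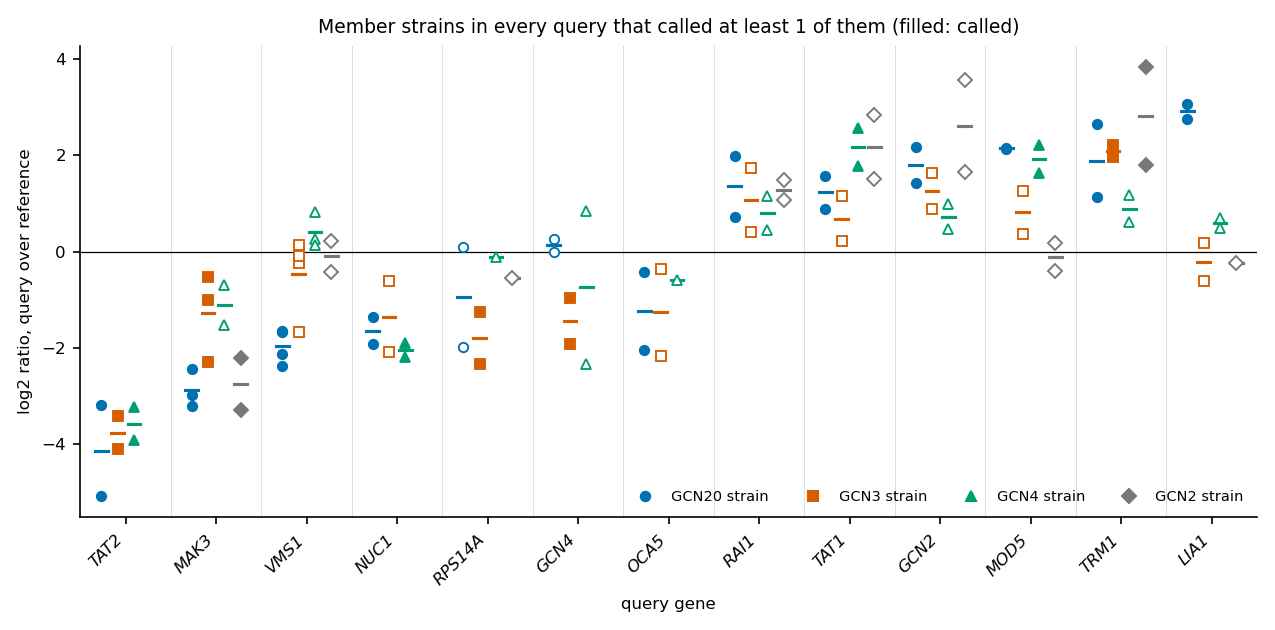
Log2 ratio of query over reference (vertical axis) in each screen for the member strains, in the 13 queries that called at least 1 of them (horizontal axis). Points are screens, bars are means, and filled points mark called pairs; open points were not called or not tested. All points of the TAT2 query lie at -3.19 or below.

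Among the pairs tested, which leave out linked loci, the lowest values of GCN3, GCN4 and GCN20 were those in the TAT2 query. TAT2 encodes the high-affinity tryptophan permease of the plasma membrane, which also takes up tyrosine. The GCN20 strain stood at -5.08 and -3.19, a mean of -4.14 ± 1.34 (limma adjusted p = 5.38e-17). The GCN3 strain stood at -4.10 and -3.42, a mean of -3.76 ± 0.48 (limma adjusted p = 1.02e-11). The GCN4 strain stood at -3.92 and -3.23, a mean of -3.58 ± 0.49 (limma adjusted p = 2.04e-07). Both screens of all 3 strains were far below 0. The query itself called few strains, 19 lower and 3 higher of 3944 tested, and the 3 members ranked 3rd, 4th and 5th from the lowest. Each feature of the members read on its own in both screens gave the same picture, from -3.47 to -4.38. Either screen alone kept the call of all 3 strains, with the largest adjusted p, 0.0488, for GCN4 without replicate 1. The strain labelled GCN2 was not measured in this query.

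The query for TAT1, a permease of branched-chain amino acids, tyrosine and, at low affinity, tryptophan, called the GCN4 and GCN20 strains higher. Of all strains tested in it, 0.832% were called higher and 2.52% lower. The GCN4 strain stood at 1.79 and 2.58, a mean of 2.19 ± 0.56 (limma adjusted p = 0.00436), and was 4th from the highest of 3965 strains. For GCN20 the screens stood at 0.89 and 1.58, a mean of 1.23 ± 0.49 (limma adjusted p = 0.0436). For GCN3 the screens stood at 0.22 and 1.15, and the mean of 0.68 ± 0.66 was not called (limma adjusted p = 0.563), though it was after subtraction of the pool median (1.33, 0.0426). For the strain labelled GCN2 the screens stood at 1.52 and 2.85, and the mean of 2.18 ± 0.94 was not called either (limma adjusted p = 0.119). It was called with the reference pool as a block (2.18, 0.00667) and with mixed-reference screens only (0.000534). Neither setting could move this mean, and only the p-value changed. All screens of all 4 strains were above 0. With 1 screen left out, the calls of GCN4 were lost either way (means of 2.58 and 1.79, limma adjusted p = 0.125 and 0.229), and that of GCN20 was lost without replicate 2 (0.89, limma adjusted p = 0.289). That of GCN20 also failed with all arrays as deposited (limma adjusted p = 0.079) and with mixed-reference screens only (0.0624).

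The difference between both permease queries was tested within the same fit, a comparison chosen after their values had been seen. TAT2 minus TAT1 was -5.37 ± 0.56 (SE) for the GCN20 strain (limma adjusted p = 1.26e-14), -4.44 ± 0.63 for GCN3 (2.59e-08) and -5.76 ± 0.77 for GCN4 (4.39e-09). This difference was past the threshold in 1.71% of 3802 strains. Both queries were run against the same 2 reference pools, so the pools cancel in it.

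Those 2 pools served 13 queries and no others, and they hold the TAT2, TAT1, NUC1 and GCN2 queries. The fit with the reference pool as a block therefore could not remove a level shared by both pools. It left the member means in TAT2, TAT1, NUC1 and GCN2 unchanged and altered only the p-values. In the 11 other queries of these pools that were tested, the GCN20 strain had a median of -0.50 and ranged from -1.64 to 1.79. The GCN3 strain had a median of -0.16 and ranged from -1.35 to 1.26. In the 12 others tested for the GCN4 strain the median was -0.48 and the range -2.05 to 2.19. The TAT2 values of all 3 strains lay below these ranges. After subtraction of each strain's median over its pool, a setting chosen after seeing the data, TAT2 stood at -3.67 for GCN20, -3.48 for GCN3 and -3.14 for GCN4.

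**Figure D3:**
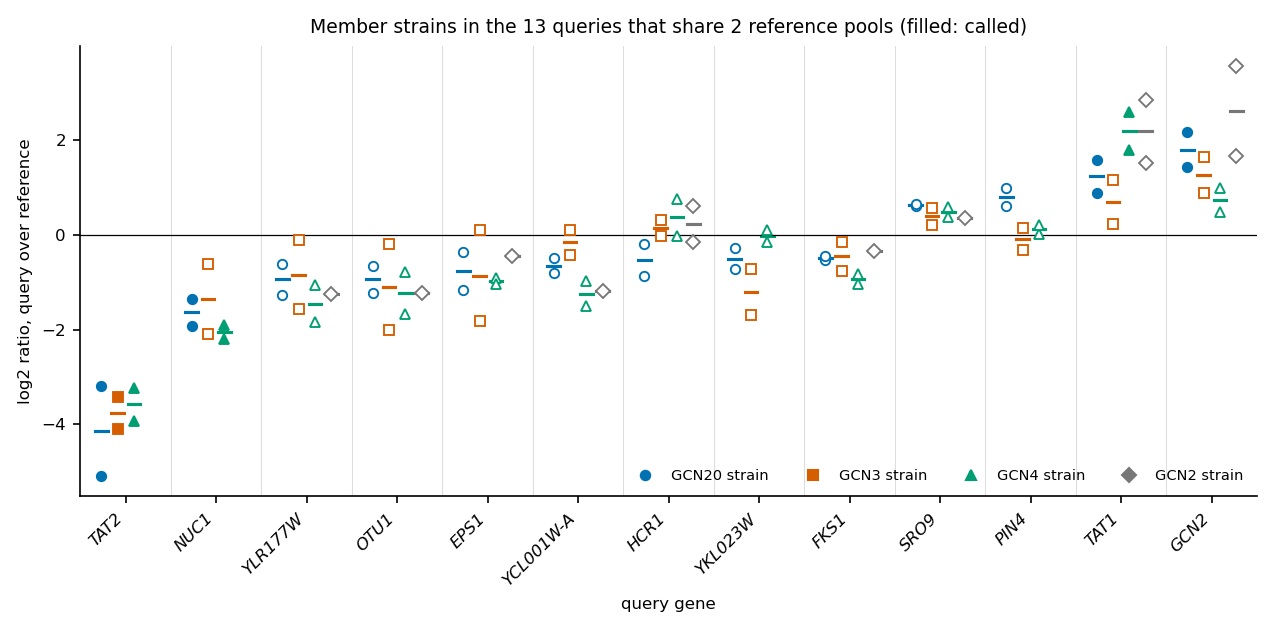
Log2 ratio of query over reference (vertical axis) per screen for the member strains in the 13 queries that share 2 reference pools (horizontal axis, ordered by the GCN20 mean). Points are screens, bars are means, and filled points mark called pairs. TAT2 lies lowest and TAT1 and GCN2 highest for the GCN20 strain, at -4.14, 1.23 and 1.79.

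Strains of aromatic and histidine synthesis, a list of 20 genes of which 14 were measured, were set beside the members in these queries. In TAT2, 4 of 13 strains tested were lower. TRP5, which carries out the last step of tryptophan synthesis, stood at -7.55 ± 0.50 and ARO3, a synthase of the opening step of the aromatic pathway, at -3.54 ± 0.41. ARO1, the multifunctional enzyme of the shared pathway, stood at -2.33 and -7.23, and TRP2, of the branch to tryptophan, at -2.20 and -4.41. The strains of the branch to phenylalanine and tyrosine did not pass the test, with ARO7 at 0.06 ± 0.27 and PHA2 at 0.10 ± 0.13. The 6 histidine synthesis strains measured lay between -0.86 and 0.27, and their tests were not passed. In the other lists examined, among them translation factors, permeases, coactivators and the remaining amino acid pathways, no strain tested was called in TAT2. Their medians in this query lay between -0.72, in a list with 1 strain tested, and 0.29. The median of the aromatic and histidine list was -0.21, within that range, so the medians do not set the lists apart.

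In TAT1 the aromatic strains parted in another way. ARO7 was lower at -3.57 ± 0.75, PHA2 at -4.94 ± 0.45, ARO1 at -4.86 ± 3.13 and TRP5 at -2.95 ± 2.65. ARO3 was the strain of the list that rose, at 1.91 and 2.48 (mean 2.19 ± 0.40, limma adjusted p = 0.000341). ARO3 was thus lower in TAT2 and higher in TAT1, as the GCN4 and GCN20 strains were. In the branched-chain, threonine, serine and methionine list, LEU3, the activator of leucine genes, was lower in TAT1 at -5.20 ± 0.88 and ILV1, threonine deaminase, at -4.33 ± 0.23.

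**Figure D4:**
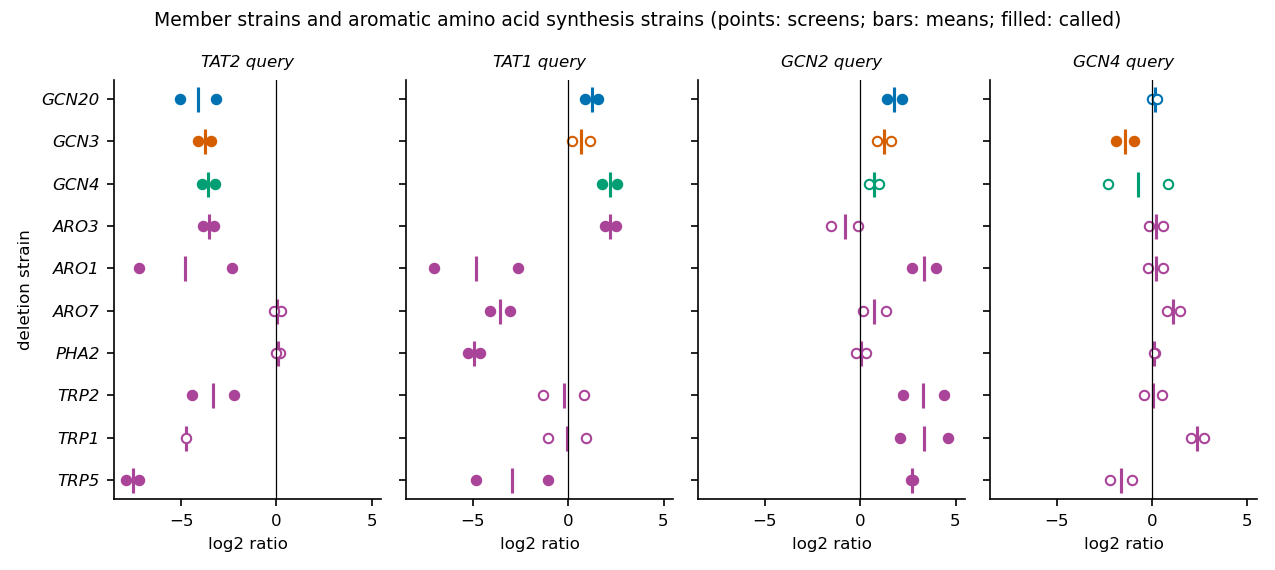
Log2 ratio of query over reference (horizontal axes) for the 3 member strains and 7 strains of aromatic amino acid synthesis (vertical axis) in the TAT2, TAT1, GCN2 and GCN4 queries. Points are screens, vertical bars means, and filled points mark called pairs. The members and ARO3 lie left of 0 in TAT2, with means from -4.14 to -3.54, and right of 0 in TAT1.

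The queries of the general control itself gave unlike results. In the GCN2 query the GCN20 strain stood at 1.42 and 2.17, a mean of 1.79 ± 0.53 (limma adjusted p = 0.000625). The GCN3 strain stood at 0.88 and 1.63, a mean of 1.26 ± 0.53 that was not called (0.0904), and the GCN4 strain at 0.47 and 0.99, a mean of 0.73 ± 0.37 that was not called (0.649). All 6 values were above 0, in a query that called 6.25% of strains higher and 2.84% lower. The GCN3 strain was called with the reference pool as a block (1.26, limma adjusted p = 0.019), which left its mean unchanged. It was also called with array weights (0.0423) and after subtraction of the pool median (1.90, 0.000735). The GCN4 strain was called after that subtraction (1.61, 0.00622). The GCN20 call was lost with quantile normalization (1.10, limma adjusted p = 0.209) and with arrays scaled to a common spread (1.65, 0.0537).

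In the GCN4 query the GCN3 strain was lower, at -1.91 and -0.96 (mean -1.44 ± 0.67, limma adjusted p = 0.0373). This call was lost with the reference pool as a block (-1.32, limma adjusted p = 0.0955), with mixed-reference screens only (0.0621) and with either screen left out. The GCN20 strain stood at 0.00 and 0.27 in the GCN4 query and was not called (mean 0.14 ± 0.19). That query called 1.84% of strains lower and 1.71% higher. GCN4 query minus GCN2 query, again a comparison chosen after the values had been seen, was -2.69 ± 0.63 (SE) for the GCN3 strain (limma adjusted p = 0.0029) and -1.65 ± 0.56 for GCN20 (0.0623). This difference was past the threshold in 4.61% of 3642 strains. The 2 queries shared no reference pool, and the part of the pools in this difference was not tested.

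Some crosses were made in both directions. Pearson's r between the directions was 0.23 over 66 genes for the strain labelled GCN2 and 0.333 over 84 for GCN4. Some pairs, picked after their values were seen, differed between the directions. The TEF4 strain stood at -5.07 ± 0.37 in the GCN4 query (limma adjusted p = 1.26e-12), and the GCN4 strain at 0.05 in TEF4. For DUG2 these were -3.29 ± 1.63 (1.64e-05) and 0.65, and for NUC1 -0.11 ± 0.35 and the called -2.05. The TAT2 strain was lower in the GCN4 query, at -2.28 and -2.73 (mean -2.50 ± 0.32, limma adjusted p = 4.49e-10), as the GCN4 strain was in TAT2. It was lower in the GCN2 query too, at -5.34 and -5.63 (mean -5.49 ± 0.21, limma adjusted p = 4.59e-33). The TAT1 strain was higher in the GCN2 query, at 1.95 and 2.76 (mean 2.36 ± 0.57, limma adjusted p = 0.016). In the GCN4 query it stood at 0.98 ± 0.28 and was not called (0.588). The aromatic strains ARO1, TRP1, TRP2 and TRP5 were higher in the GCN2 query, from 2.72 to 3.35, with ± SD from 0.10 to 1.76. In the GCN4 query none of them was called: ARO1 stood at 0.19 ± 0.56, TRP1 at 2.38 ± 0.51, TRP2 at 0.04 ± 0.64 and TRP5 at -1.65 ± 0.81 (limma adjusted p from 0.0988 to 0.996).

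MAK3, the catalytic subunit of the NatC N-terminal acetyltransferase, called the GCN20 and GCN3 strains lower, and the strain labelled GCN2 as well. The GCN20 strain stood at -2.99, -2.44 and -3.20 (mean -2.88 ± 0.39, n = 3, limma adjusted p = 4.24e-13). For GCN3 they stood at -1.0, -0.52 and -2.29 (mean -1.27 ± 0.92, n = 3, limma adjusted p = 0.0187). Screens of the strain labelled GCN2 stood at -3.29 and -2.21 (mean -2.75 ± 0.76, limma adjusted p = 0.0278), and the MAK3 strain in the GCN2 query at -3.15 ± 1.41 (limma adjusted p = 1.39e-11). The GCN4 strain stood at -1.53 and -0.69, with a mean of -1.11 ± 0.60 that was not called (limma adjusted p = 0.326), though it was after subtraction of the pool median (-1.69, 0.00354). In the GCN4 query the MAK3 strain was lower, at -1.53 ± 0.18 (limma adjusted p = 0.00368). All screens were below 0.

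The MAK3 query lowered many strains, 8.26% of those tested, and the GCN20 strain ranked 109th and the GCN3 strain 318th from the lowest of 3982. With quantile normalization, the GCN20 mean was -1.49 and still called, while that of GCN3 was -0.75 and lost its call (limma adjusted p = 0.322). The GCN3 call was also lost with the pool as a block (-0.98, 0.132), without replicate 1 (-1.41, 0.0908) and without replicate 2 (-1.65, 0.0671).

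Both queries for tRNA-modifying enzymes that were called raised members. TRM1 methylates a guanosine of many tRNAs. In its query the GCN3 strain stood at 2.22 and 1.97 (mean 2.10 ± 0.18, limma adjusted p = 0.000424) and the GCN20 strain at 1.13 and 2.65 (mean 1.89 ± 1.07, limma adjusted p = 0.000246). The strain labelled GCN2, whose locus lies 168 genes from TRM1 on the same chromosome, stood at 3.84 and 1.80 (mean 2.82 ± 1.45, limma adjusted p = 0.0226). The GCN4 strain stood at 1.17 and 0.62 and was not called (mean 0.90 ± 0.39). All screens were above 0. In reverse, the TRM1 strain was higher in the GCN2 query at 1.80 ± 0.40 (limma adjusted p = 0.0102) and stood at -0.56 ± 0.66 in the GCN4 query, where it was not called.

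TRM1 was a query with many higher calls, 4.60% of strains, and the eIF2 subunit strains SUI2 (3.15 ± 0.99) and SUI3 (2.41 ± 0.42) were among them. Of the 5 strains of the eIF2 and eIF2B list tested in TRM1, CDC123, an assembly factor of eIF2, was lower (-1.04 ± 1.63, limma adjusted p = 0.00281). The call of the strain labelled GCN2 was lost with the pool as a block (2.31, limma adjusted p = 0.0936). Those of GCN3 and GCN20 were lost with arrays scaled to a common spread (1.56 and 1.53, limma adjusted p = 0.132 and 0.0876) and with quantile normalization (1.36 and 1.37, 0.0677 and 0.0772). The GCN3 call was lost with either screen left out (1.97 and 2.22, 0.0956 and 0.0835), and that of GCN20 without replicate 2 (1.13, 0.132).

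MOD5 encodes the tRNA isopentenyltransferase, and its query called 2.6% of strains higher and 7.08% lower. In its query the GCN20 strain stood at 2.16 and 2.13 (mean 2.14 ± 0.02, limma adjusted p = 1.94e-05) and was 6th from the highest of 3842 strains. The GCN4 strain stood at 2.22 and 1.63 (mean 1.93 ± 0.42, limma adjusted p = 0.0168) and was 10th. The GCN3 strain, at 1.27 and 0.36, was not called (mean 0.82 ± 0.64, limma adjusted p = 0.419), although it was with the reference pool as a block (1.30, 0.0411). The screens of the strain labelled GCN2 stood at -0.41 and 0.18 (mean -0.12 ± 0.42, not called). For 3 of the 4 strains, both screens were above 0. The call of GCN20 was lost with arrays scaled to a common spread (1.44, limma adjusted p = 0.12), as was that of GCN4 (1.30, 0.138), which was lost with either screen left out as well (1.63 and 2.22, 0.447 and 0.114).

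The remaining calls were mostly for the GCN20 strain. In LIA1, the query for the hydroxylase that completes hypusine on the translation factor eIF5A, it stood at 2.75 and 3.08 (mean 2.91 ± 0.24, limma adjusted p = 1.85e-09), the highest of 3977 strains. The GCN3 strain stood at 0.18 and -0.60 in LIA1 and the GCN4 strain at 0.50 and 0.70, and neither was called. In VMS1, the query for a Cdc48 cofactor that releases stalled nascent chains from ribosomes, the GCN20 strain stood at -1.65, -1.66, -2.37 and -2.13 (mean -1.95 ± 0.36, n = 4, limma adjusted p = 1.4e-08). It was 9th from the lowest of 3995 strains. An array of this query was turned by the linkage check, and with all arrays as deposited the mean was -1.13 (limma adjusted p = 0.00927). In the same query the GCN3 strain stood at -0.47 ± 0.82 (n = 4) and the GCN4 strain at 0.41 ± 0.37 (n = 3), and neither was called.

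In NUC1, the query for the mitochondrial nuclease, the GCN4 strain stood at -1.90 and -2.20 (mean -2.05 ± 0.21, limma adjusted p = 0.00894). For GCN20 they stood at -1.36 and -1.92 (mean -1.64 ± 0.40, limma adjusted p = 0.00239) and the GCN3 strain at -0.61 and -2.09 (mean -1.35 ± 1.05, not called, 0.0569). The latter was called with the reference pool as a block (-1.35, 0.0092), which left its mean unchanged. All 6 values were below 0, in a query that called 1.6% of strains lower and 0.25% higher. The GCN4 call was lost with either screen left out (-2.20 and -1.90, limma adjusted p = 0.214 and 0.191). That of GCN20 was lost without replicate 2 (-1.36, 0.0606) and after subtraction of the pool median (-1.17, 0.0635).

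In RPS14A, a protein of the small ribosomal subunit, the GCN3 strain stood at -1.26 and -2.33 (mean -1.80 ± 0.76, limma adjusted p = 0.00411), and the call was lost without replicate 2 (-1.26, 0.459). The GCN20 strain stood at 0.10 and -1.98 there and was not called. The RPS14A query called 2.14% of strains lower and 2.17% higher. The query for RAI1, the partner of the nuclear exonuclease Rat1, called 1.71% of strains higher and 2.76% lower. In RAI1 the GCN20 strain stood at 0.72 and 1.99 (mean 1.35 ± 0.90, limma adjusted p = 0.0208). This call was lost without replicate 2 (0.72, 0.46), with arrays scaled to a common spread (1.40, 0.136) and with quantile normalization (1.13, 0.185). In OCA5 the GCN20 strain stood at -0.42 and -2.04 (mean -1.23 ± 1.15, limma adjusted p = 0.044), and only 4 of 15 alternatives kept this call. The OCA5 query called 5.64% of 3864 strains lower, and the GCN20 strain ranked 262nd from the lowest. Without replicate 2 the OCA5 mean was -0.42 (0.825).

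UBP8, the SAGA deubiquitinase, is named after its values were seen, as the query whose means lay close to the limits of a call in several members. The GCN20 strain stood at -1.47 and -0.89 (mean -1.18 ± 0.41, limma adjusted p = 0.0593), GCN3 at -1.01 and -1.02 (0.234), and GCN4 at -0.95 and -0.86 (0.497). Screens of the strain labelled GCN2 stood at -0.90 and -1.40 (0.606). All 8 values were below 0, and no pair was called. Both arrays of this query were turned by the linkage check, so the deposited values have the opposite sign. With the reference pool as a block, GCN20 (-1.90, limma adjusted p = 0.000884) and GCN3 (-2.24, 0.000261) were called lower in UBP8.

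Several queries of amino acid and nutrient supply, and that of HCR1, did not call any member. In NPR3, a subunit of the complex that restrains TORC1, the GCN20 strain stood at -0.28 ± 0.48, GCN3 at -0.31 ± 0.34 and GCN4 at 0.06 ± 0.77, in a query that lowered 11.7% of strains. In LYS9, an enzyme of lysine synthesis, the GCN20 strain stood at 0.89 ± 0.10 (limma adjusted p = 0.231), GCN3 at 0.54 ± 0.26 and GCN4 at 0.11 ± 0.27. In SHM2, the cytosolic serine hydroxymethyltransferase, the 3 strains lay between -0.68 and -0.19. In ADE4, of purine synthesis, they lay between -0.01 and 0.37, and in HCR1, a factor associated with eIF3, between -0.53 and 0.36. THR4, threonine synthase, had a single screen with values from -0.69 to 0.20 for these 3 strains. The strain labelled GCN2 stood lower in NPR3, at -1.21 ± 0.11, and in LYS9, at -1.17 ± 0.10, and was not called (limma adjusted p = 0.571 and 0.592). The values with 2 screens did not pass the test at this number of screens.

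Across queries, the member strains resembled each other more than they resembled most other strains. The correlation of query means was 0.654 between GCN20 and GCN4 over 113 queries, 0.640 between GCN20 and GCN3 over 133, and 0.581 between GCN3 and GCN4 over 111 (Pearson). Spearman's rho was lower, at 0.521, 0.471 and 0.329. Among all strains with at least 100 shared queries, the most similar pair of strains to GCN20 were GCN4 and GCN3, to GCN3 were GCN20 and GCN4, and to GCN4 were GCN20 and GCN3. For comparison, the median r to all ranked strains lay between -0.00287 and 0.00249 for these members, and the 95th percentile between 0.195 and 0.245. The queries TAT1 and TAT2 carried part of this likeness, and without them r was 0.545, 0.536 and 0.423. The value between GCN3 and GCN4 then fell below those of RPL9B (0.487), SRB8 (0.467) and SRO9 (0.465) for GCN3, and below those of RPL27B (0.445) and UTP4 (0.443) for GCN4. By Spearman's rho the order also changed: SRB8 (0.527) and SRO9 (0.483) exceeded both members for GCN3, SSN2 (0.514) and SRO9 (0.496) exceeded GCN3 for GCN20, and UTP4 (0.419), ARO3 (0.373) and RPL27B (0.348) exceeded GCN3 for GCN4. These correlations are descriptions: the points share arrays and reference pools.

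After the members, the strains most like GCN20 were CDC33, the cap-binding factor eIF4E (r = 0.490), SRO9, an RNA-binding protein (0.464), and SSN2, of the Mediator kinase module (0.452). Those most like GCN3 were RPL9B (0.480), of the large ribosomal subunit, SRB8 (0.477), also of the Mediator kinase module, and SRO9 (0.437). Those most like GCN4 were ARO3 (0.577, and 0.406 without TAT1 and TAT2), UTP4, of small-subunit assembly (0.449), and RPL27B, of the large ribosomal subunit (0.440). For the strain labelled GCN2, ranked over at least 80 shared queries, RDI1 stood at 0.575, GCN3 at 0.532, VTC4 at 0.509, GCN20 at 0.503 and ATP14 at 0.499. Over mixed-reference screens only, these 5 values were 0.543, 0.437, 0.298, 0.542 and 0.464, so their order changed. The GCN4 strain was 60th in that ranking, at 0.380.

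**Figure D5:**
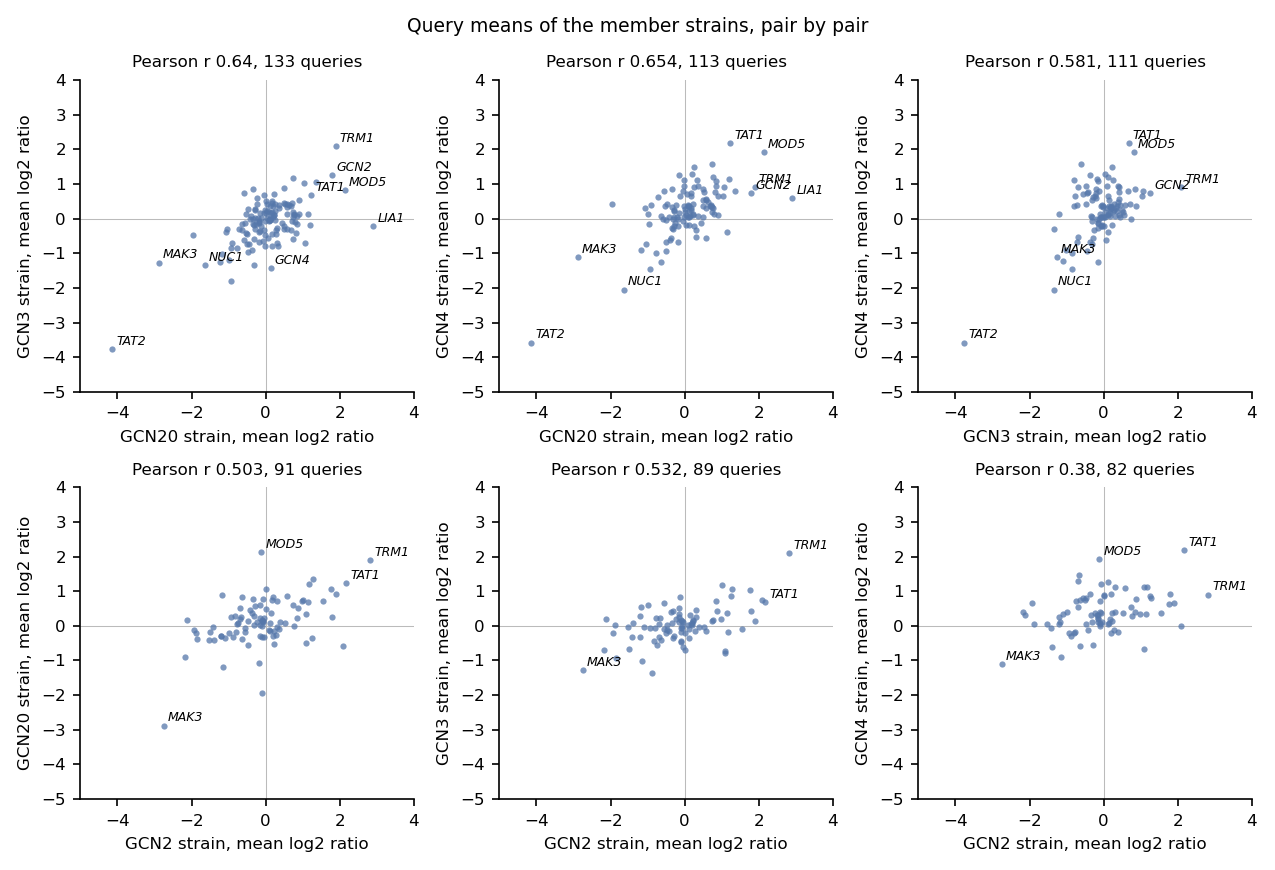
Query means of the log2 ratio for each pair of member strains, 1 point per query tested in both strains. Pearson's r stands above each panel, from 0.38 to 0.654. TAT2, MAK3 and NUC1 lie low and TRM1, MOD5 and TAT1 high for several strains.

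Correlations to other genes of the pathway were lower. The median r to GCN20 was 0.026 over 7 measured strains of eIF2, eIF2B and ternary complex factors, 0.049 over 9 regulators of Gcn2 and partners of Gcn1, 0.116 over 4 SAGA strains and 0.180 over 14 aromatic and histidine strains. By calls, 3.64% of pairs of the eIF2 and eIF2B list were lower and 1.21% higher, with SUI3 (14 lower, 8 higher) and SUI2 (8 lower, 2 higher) called most. The Gcn2 regulators had 2.12% lower and 1.69% higher, led by SAP190, a subunit associated with a Sit4 phosphatase (11 lower, 6 higher). SAP190 was also lower in both general control queries, at -3.19 ± 0.26 in GCN2 and -1.79 ± 0.12 in GCN4.

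The shares called lower stood highest for the TORC1 and amino acid signalling list, at 8.99% of 1034 pairs, and the SAGA coactivators, at 7.66% of 522. In the former, NPR3 was lower in 23 queries, the nitrogen regulator URE2 in 20 and RTC1 in 18. In the latter, SGF11 was lower in 16 and UBP8 in 14. The aromatic and histidine list had 5.31% lower, led by TRP2 (24 queries) and ARO1 (23), whereas arginine, ornithine and lysine synthesis had 0.0923% lower and 0.461% higher. The permease and Ssy1 list had 2.85% lower, with TAT1 lower in 25 queries. These shares describe the lists beside the 2.33% of all pairs.

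Queries were also compared by class. No class shift of GCN3, GCN4 or GCN20 passed limma at an adjusted p of 0.05 with a difference of at least 0.5, a rule that 1.53% of all strain and class pairs met, and 4 of their 37 shifts had an unadjusted p under 0.05. The 7 tRNA modification queries averaged 0.80 ± 0.94 (SD between queries) for the GCN20 strain against -0.01 in other queries (limma adjusted p = 0.341). The 4 OCA family queries averaged -0.93 ± 0.34 for GCN20 and -0.90 ± 0.41 for GCN3, all 4 below 0 in both strains (limma adjusted p = 0.477 and 0.469). The GCN3 shift for this class, -0.81 ± 0.33 (SE), was -1.77 without replicate 1 (limma adjusted p = 0.0355), -1.55 with arrays scaled to a common spread (0.0267) and turned to 0.15 without replicate 2 (0.887).

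Some members differed between screens against the 2 main kinds of reference. No reference pool label spans both kinds, so the reference kind and the run of a screen cannot be told apart. The strain labelled GCN2 averaged -1.27 ± 1.25 (n = 57 screens) against YEL068C and 0.24 ± 1.09 (n = 184 screens) against the mixture. Within queries screened against both kinds, 35 for this strain, the fitted difference was -1.86 ± 0.20 (SE, limma adjusted p = 2.98e-13). The GCN4 strain, whose locus lies 71 genes from YEL068C, differed by 0.47 ± 0.17 (limma adjusted p = 0.0218), and by 0.22 without the presence filter (0.291). GCN3 (-0.01 ± 0.13) and GCN20 (0.09 ± 0.12) did not pass the test. With the filter 41.1% of all strains passed this test, and without it 39.6%.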

How the data were processed

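Genomic DNA barcodes of pooled yeast strains were amplified, labelled with Cy3 (query) or Cy5 (reference) and hybridised together, per the labels' protocols. The deposited values are ratios of both channels that were taken as log2 ratios. The labels and file headers do not state their log base, centring, sign or earlier processing. They ran from -14.59 to 16.42 over 312 arrays, and medians per array from -0.19 to 0.48. Ratios carry no brightness, and precision is set by how many arrays there are.

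Gene symbols came from the platform annotation, updated through an R64 gene table that also gave gene order. Features with values on at least 80% of arrays (8632) were averaged per strain, and arrays were centred on their median. On 17 arrays the median of strains linked to the query (within 25 genes) was positive, from 1.57 to 3.77, and these arrays were multiplied by -1. Repeat arrays of 8 screens were averaged. Each strain was fitted with limma 3.58.1 (R 4.3.3), with a mean per query, a variance pooled over queries and Benjamini-Hochberg adjustment over all pairs tested. All limma tests were two-sided. The 140 queries with at least 2 screens were tested. On simulated data this fit recovered 74% of effects of log2 size 1.5 and 93.8% of size 3, with 5 false calls. The simulated screens varied independently with the fitted variance, without shared reference pools. These figures check the fit and do not give the error rate in the real screens. Query differences came from the same model. The effect of the reference kind came from a separate limma fit to mixed and YEL068C screens, with a mean per query and a term for the reference. The text names, per strain, up to 8 called queries in each direction whose screens shared a sign. Further queries named are a fixed set, mostly of amino acid supply, those calling at least 3 members and those within 25 genes. It also names the 5 most similar strains and the 3 most called strains of each list. Single strains of the lists that the text gives in the TAT2, TAT1, GCN2, GCN4 and TRM1 queries were chosen after their values were seen. The members, gene lists and query classes were chosen with earlier results of these data known. Alternatives were the sign as deposited, reference pool, replicate number, scaling, presence filter, single features, array weights and screens left out.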

Additional observations from a re-analysis of the deposited data

Results flagged for a closer look

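In the SXM1 query, which had 4 screens, the strain labelled GCN2 stood at -1.22, -0.14, -0.02 and -0.06. The lowest screen lay apart from the others by 0.90 of the whole range. It was the screen of this query run against the YEL068C reference, and the other 3 were run against the mixture. Chance marks about 1 in 20 groups in this way.

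Against the YEL068C reference the strain labelled GCN2 stood lower than against the mixture by a fitted difference of -1.86, and the GCN4 strain stood higher by 0.47. Such a difference was past the threshold in 41.1% of all strains.

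TAT2 minus TAT1 differed from 0 in the same fit for all 3 members that passed the presence filter, at -5.37 for GCN20, -4.44 for GCN3 and -5.76 for GCN4. GCN4 minus GCN2 query was -2.69 for the GCN3 strain.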

How the results depend on the processing

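No called pair of a member reversed its sign under any alternative run. Of the calls of GCN3, GCN4 and GCN20, those in the TAT2 query and the GCN20 calls in MAK3, LIA1 and VMS1 held under all 15 alternatives. For TAT2, the reference pool as a block and mixed-reference screens only could not move the means. Counts of called queries moved by over 1.5 times as follows. For GCN3, main count 5, the reference pool as a block gave 10, array weights 8 and subtraction of the pool median 10. For GCN4, main count 4, these gave 8, 7 and 8, scaling to a common spread 7, and a feature present on 40.7% of arrays, tested in 25 queries, 2. For GCN20, main count 11, scaling to a common spread gave 5, and for the strain labelled GCN2, main count 2, mixed-reference screens gave 7 and subtraction of the pool median 4. With replicates 1 or 2 left out, counts ranged from 8 to 22 for GCN20 and from 1 to 2 for GCN3, and both came to 1 for GCN4. A lone screen was then assumed to vary like those of other queries. These runs, weights and scaling were not run for the strain labelled GCN2. Class shifts numbered 1 with scaling and 1 without replicate 1, and 0 without replicate 2. It was the OCA family in GCN3, at -1.55 and -1.77 (limma adjusted p = 0.0267 and 0.0355), and without replicate 2 it stood at 0.15. The GCN4 reference effect was 0.22 without the presence filter. The cause of these changes was not tested. On average over queries, replicate numbers showed little sign of pairing the screens. Over 133 queries with both numbers the mean correlation of deviations was 0.019, and 24.5% of query pairs exceeded 0.1. Such a mean cannot exclude pairing within some queries. In TAT2, TAT1, NUC1 and GCN2, all replicates 1 shared a reference pool, and all replicates 2 shared another. With the replicate block, counts were 9 for GCN20, 5 for GCN3 and 3 for GCN4.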
